A study of Rattus norvegicus with 2 samples.

Results

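The genes described here are 10 immediate early genes outside the AP-1 and Egr families: the nuclear receptor genes Nr4a1, Nr4a2 and Nr4a3, the immediate early response genes Ier2, Ier3 and Ier5, the RNA-binding protein gene Zfp36, and the zinc finger transcription factor genes Klf2, Klf4 and Klf6. They were chosen by name, and a probe was taken for a gene when its accession in the scanner files was a RefSeq mRNA of that gene. All 10 were found, each with 1 probe and 1 spot on an array, among 13882 genes that could be named. Total RNA came from cultured rat hippocampal neural stem cells, which divide to renew themselves and can form neurons and glial cells. It was hybridised to 1-colour microarrays with probes for messenger and long non-coding RNAs. The cells were from Sprague-Dawley rats at postnatal day 3, were grown without serum and with bFGF, a growth factor, and were used at passage 3. The sevoflurane group was kept under 2.4% sevoflurane, an inhaled general anaesthetic, for 6 h, and the control group under 0% sevoflurane for the same time. Per the labels, both then stood for 24 h in an incubator at 5% CO2, but other label fields name only 6 h, so the time between exposure and harvest is not settled. There was 1 array per group (n = 1), so no difference has a replicate check and no p-value can be given. The sources used here do not say whether an array holds 1 culture or a pool.

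Immediate early genes are switched on by signals without the need for new protein synthesis, largely through serum response factor and its partners, CREB and the ERK cascade. Their mRNAs are short-lived, so their levels usually rise and fall again quickly after a growth factor, depolarisation or stress. In neural tissue they are widely used as markers of recent stimulation, and several of them encode proteins that feed back on the response.

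Signals are Agilent processed intensities, given with the error that the scanner software assigned to the spot, which is technical and leaves out differences between cultures. A level is log2 of the signal minus the 75th percentile of the array, which lay at a signal of 359 for sevoflurane and 692 for the control. Equal signals therefore correspond to a level higher by 0.95 on the sevoflurane array. Differences are sevoflurane minus control in log2 units, and at least 2-fold (1 log2 unit) was the rule of size. All 10 genes were well above background on both arrays, as were 16047 of 24629 usable probes. By that rule 6 of the 10 were higher (Ier3, Zfp36, Klf4, Klf6, Ier2 and Nr4a1), where 28.2% of 10022 measured genes were higher. Another 2 were lower (Nr4a3 and Ier5), where 11.2% of measured genes were lower. Nr4a2 and Klf2 lay within 2-fold. On this scale the median difference was 1.23 over the 10 genes and 0.27 over all measured genes, and both medians changed with the scaling, as given below.

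**Figure D1:**
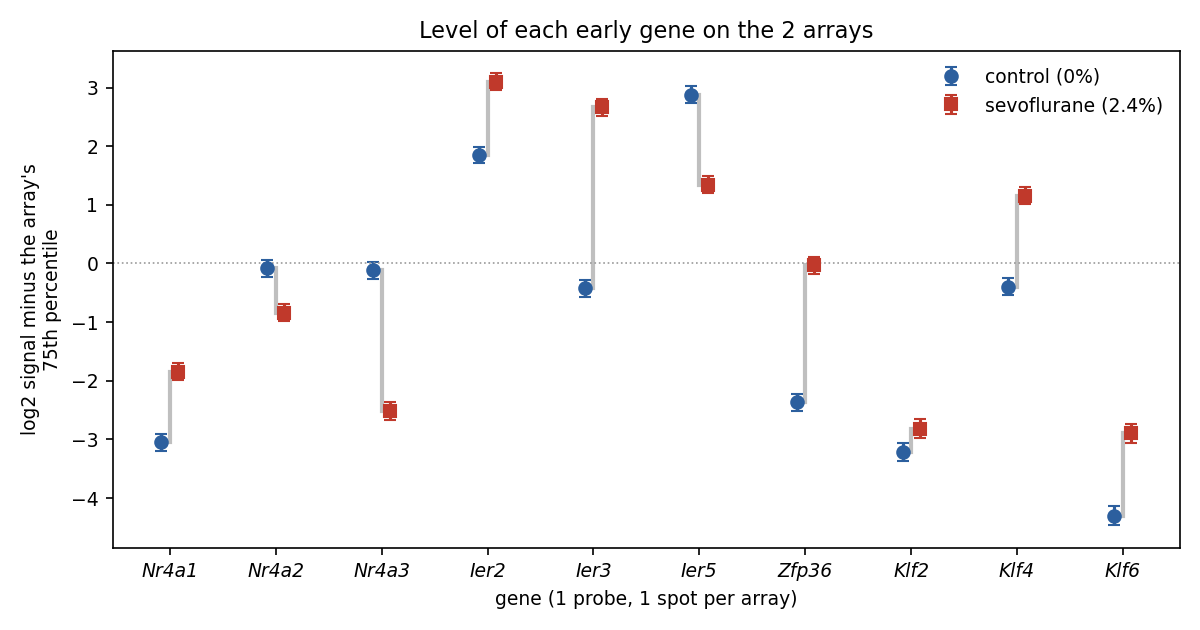
Level of each of the 10 early genes on the control array (blue circles) and the sevoflurane array (red squares), as log2 signal minus the 75th percentile of the array. Bars are the scanner software's error of the single spot, and each gene should be read only against itself. Ier3 stood at -0.42 in the control and 2.66 under sevoflurane, and Nr4a3 at -0.12 and -2.52.

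The arrays differed in the spread of their signals, with a lower quartile of 16.4 for sevoflurane and 3.97 for the control, and the split changed with how they were brought to one scale. Under 7 scalings, 6 genes were positive every time, and 3 were negative every time (Nr4a2, Nr4a3 and Ier5). The sign of Klf2 changed. Quantile normalization and the authors' deposited values nearly coincided for all 10 genes, so these 2 are not separate checks. The differences of Ier3, Zfp36, Nr4a3 and Ier5 passed the 2-fold rule in all 7 scalings. Klf4 and Ier2 passed in 6, Klf6 in 3, Nr4a1 in 2 and Nr4a2 in 1. These counts over scalings were not made for all measured genes, so no share stands beside them. An intensity-dependent correction removes the trend of the difference with level. After it, 4 of the 10 were at least 2-fold higher and 2 lower, against 15.0% and 15.5% of measured genes. The median difference was then 0.41 over the 10 genes and -0.002 over all measured genes. These medians were 0.35 and -0.10 after quantile normalization, and 0.13 and -0.83 with the median of all probes. When the median of all probes was used for scaling, which lay at signals of 51.7 and 46.6, 2 were higher and 3 lower, against 10.5% and 43.5%. A 4-fold rule left 2 higher (Ier3 and Zfp36) and 1 lower (Nr4a3), against 11.8% and 2.58%.

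The Nr4a genes encode orphan nuclear receptors, which act without a classical hormone ligand and bind DNA as monomers or as dimers, some of them with RXR. Nr4a1 and the other members of the family are induced through CREB and MEF2 in many cell types. The Nr4a1 probe (NM_024388) had a signal of 99.9965 ± 10.3 under sevoflurane and 83.5 ± 8.52 in the control. These are low signals that overlap within their errors before scaling, and the scaled difference was 1.21 ± 0.21. The 1000 measured probes nearest to it in level had a median of 0.61, and Nr4a1 fell to 0.58 after the intensity-dependent correction and to 0.11 when arrays were scaled by the median of all probes.

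Nr4a2, which is needed for the development of midbrain dopamine neurons, went the other way. Its probe (NM_019328) had a signal of 201 ± 20.2 under sevoflurane and 654 ± 65.4 in the control. The sevoflurane signal was clearly the lower of the pair, but on the scaled levels the difference was -0.75 ± 0.20, within 2-fold. It ranged from -1.85 to -0.68 over the 7 scalings. Nr4a3, the remaining receptor of the family, had the lowest difference of the 10 genes. The signal of its probe (NM_031628) was 62.6 ± 6.66 under sevoflurane and 639 ± 63.9 in the control, a difference of -2.40 ± 0.21 or 5.29-fold. It lay above only 1.55% of the measured genes. Its range over scalings was -3.50 to -1.73, the latter after normexp background correction, which adds a constant and so draws in dim signals.

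The receptors can also be set against each other within the arrays, where any constant factor of an array cancels. These contrasts were chosen after the values were seen. The difference of Nr4a1 exceeded that of Nr4a3 by 3.61 ± 0.30, with a range of 2.63 to 3.61 over all settings. That of Nr4a1 exceeded Nr4a2 by 1.96 ± 0.29, and that of Nr4a2 exceeded Nr4a3 by 1.65 ± 0.29, with lowest values of 1.30 and 1.05. From the highest difference to the lowest, the order Nr4a1, Nr4a2, Nr4a3 was kept in every setting. Settings that shift a whole array by a constant cannot change such a contrast. Only quantile normalization, the intensity-dependent correction, normexp and the authors' deposited values could move it, here and for the pairs below.

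The Ier genes share a name and a mode of induction more than a function. Ier3 encodes a small protein that influences apoptosis and ERK signalling. Its probe (NM_212505) had a signal of 2274 ± 227 under sevoflurane and 516 ± 51.6 in the control. The difference of 3.09 ± 0.20, or 8.50-fold, was the highest of the 10 genes and lay above 97.0% of measured genes. It stayed between 1.99 and 3.26 over the 7 scalings. Both signals were far over the local background of 17.0 and 27.0, so neither spot was dim.

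Ier2 encodes a nuclear protein linked to transcription. The signal of its probe (NM_001009541) was 3077 ± 308 under sevoflurane and 2496 ± 249.6 in the control. These unscaled signals differed by little more than their errors, and the scaled difference was 1.25 ± 0.20. It was 1.35 after the intensity-dependent correction and 1.29 after quantile normalization, but 0.15 when arrays were scaled by the median of all probes. Ier5, which encodes a co-regulator of the heat shock factor HSF1, was lower under sevoflurane. Its probe (NM_001025137) had a signal of 909.8 ± 91.0 there and 5088 ± 509 in the control. That control signal was far above the sevoflurane one, and the difference was -1.54 ± 0.20, or 2.90-fold, with a range of -2.63 to -1.40. The differences of Ier3 and Ier5 were 4.62 ± 0.29 apart, and this gap kept between 4.54 and 4.66 over all settings. Both genes had bright signals. Ier2 exceeded Ier5 by 2.79 ± 0.29 (2.75 to 2.83 over all settings).

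**Figure D2:**
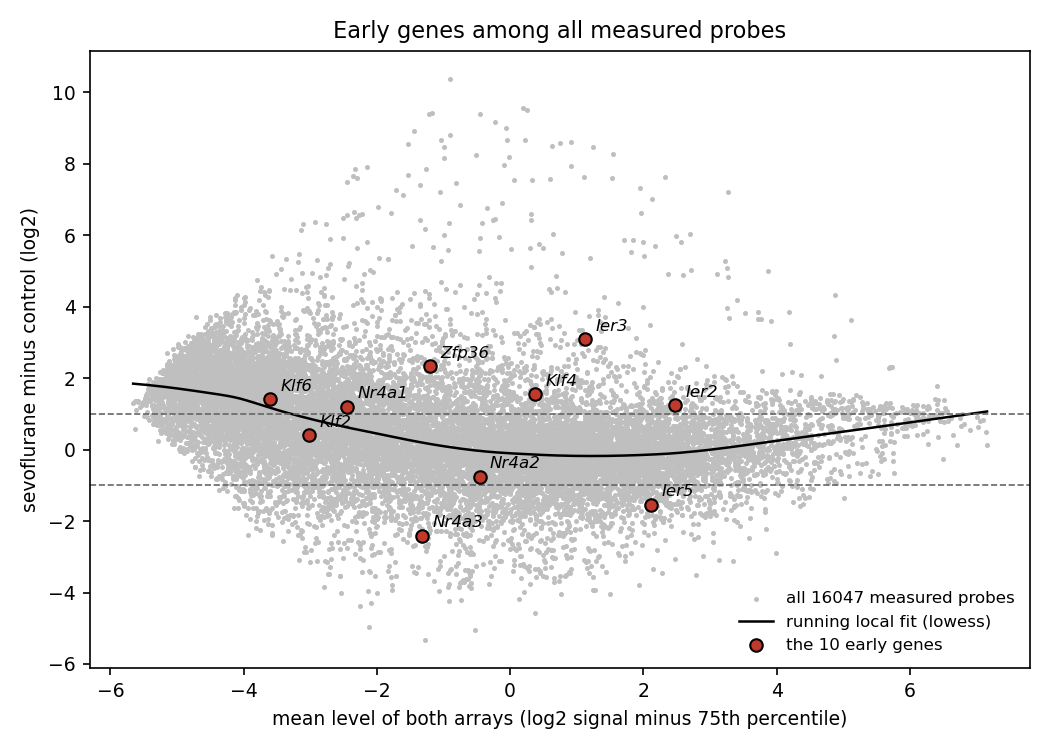
Difference (sevoflurane minus control, log2) against the mean level of both arrays for all 16047 measured probes (grey), with the 10 early genes in red, a running local fit in black and the 2-fold rule as dashed lines. Ier3, Zfp36, Klf4 and Ier2 lie above the local fit by over 1 log2 unit and Nr4a3 and Ier5 below it by as much, while Klf6 lies close to it.

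Zfp36 encodes tristetraprolin, which binds AU-rich elements in mRNAs of cytokines and early genes and recruits the CCR4-NOT deadenylase, so that these mRNAs are shortened and degraded. The signal of its probe (NM_133290) was 351 ± 35.2 under sevoflurane and 134 ± 13.5 in the control. The sevoflurane signal was the higher before any scaling, and the difference was 2.34 ± 0.21, or 5.05-fold. It ranged from 1.24 to 2.34 over the 7 scalings and lay above 92.3% of measured genes. Zfp36 and Nr4a3 were 4.74 ± 0.29 apart, with a range of 3.58 to 4.91.

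The Klf genes encode zinc finger factors that bind GC-rich and CACCC motifs. Klf4, a cell cycle regulator that is also one of the factors used to reprogramme cells to pluripotency, had the clearest difference of this family. Its probe (NM_053713) had a signal of 799 ± 79.9 under sevoflurane and 525 ± 52.5 in the control, and the difference was 1.55 ± 0.20, or 2.93-fold. The difference was 1.69 after the intensity-dependent correction and 0.46 when arrays were scaled by the median of all probes. Klf6, a factor induced by tissue injury, was dim on both arrays, with a signal of 48.2 ± 5.36 under sevoflurane and 35.1 ± 3.91 in the control (NM_031642). Its difference was 1.40 ± 0.23. The 1000 measured probes of nearest level had a median of 1.25, and after the intensity-dependent correction Klf6 stood at 0.23.

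Klf2, known for its part in endothelial and lymphocyte quiescence, was the other dim gene of the family. The signal of its probe (NM_001007684) was 51.1 ± 5.58 under sevoflurane and 74.4 ± 7.67 in the control. The raw signal was thus lower under sevoflurane, whereas the scaled difference was 0.40 ± 0.22 and the median of probes of like level 0.79. Klf2 was positive in 3 of the 7 scalings and ranged from -0.69 to 0.65, so it has no settled direction here. Klf4 exceeded Klf2 by 1.15 ± 0.30 (0.87 to 2.16 over all settings), while Klf4 and Klf6 were only 0.15 ± 0.31 apart, a gap that reached 1.46 elsewhere.

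**Figure D3:**
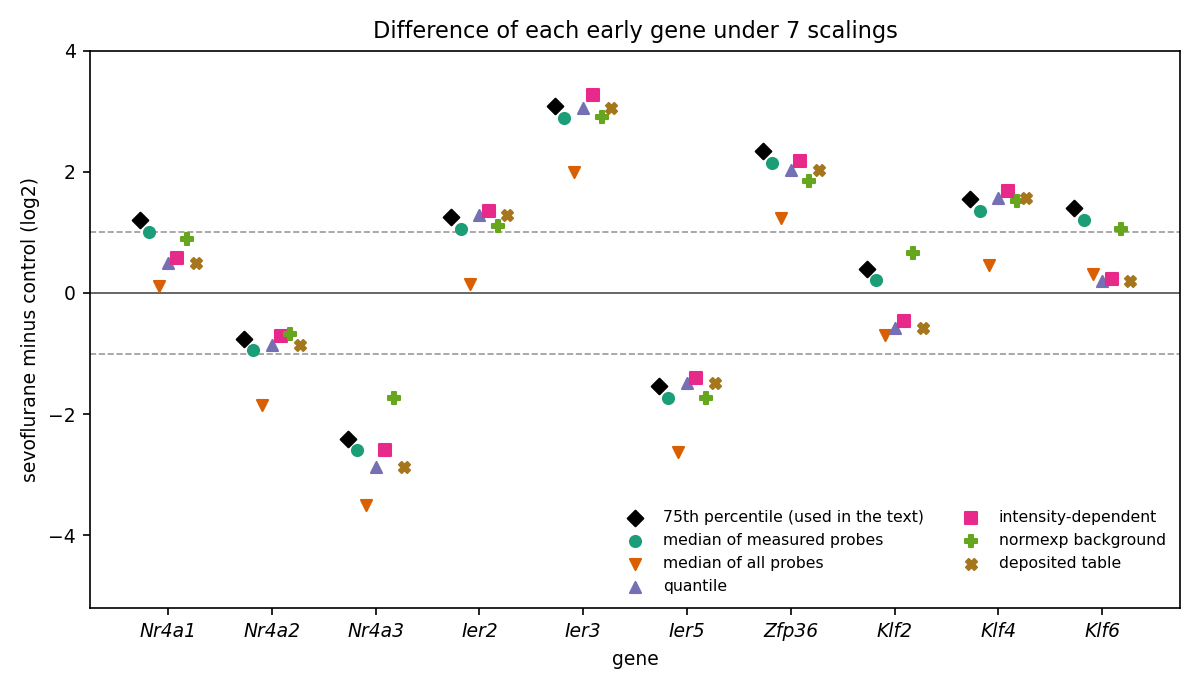
Difference of each early gene (sevoflurane minus control, log2) under 7 ways of bringing the arrays to one scale, with the 2-fold rule as dashed lines. Ier3, Zfp36, Nr4a3 and Ier5 stay outside the dashed lines under all 7, and Klf2 lies on both sides of 0.

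Sequences before the annotated start of the members are shown to set the genes beside the factors known to induce this class. RefSeq promoter windows on the GRCr8 assembly were at hand for 7 of the 10 genes. The 250 bases before the start were searched on both strands for the cAMP response element TGACGTCA, its core CGTCA (which the full element contains), the CArG box that serum response factor binds, CCAAT and TATAAA. A match is only a run of letters. Of 33469 promoter windows of this length, 1.59% held TGACGTCA, 18.2% its core, 1.497% a CArG box, 34.0% CCAAT and 12.9% TATAAA. The windows below are those of Zfp36 and Ier5, which stayed past the 2-fold rule in all 7 scalings, and of Ier2 and Nr4a1, which hold the CRE letters. They are chr1:92799109-92799358 (minus strand), chr13:69822543-69822792 (minus strand), chr19:40399123-40399372 (plus strand) and chr7:134259888-134260137 (plus strand). Each is written 5′ to 3′, with all motif matches in capitals.
Zfp36: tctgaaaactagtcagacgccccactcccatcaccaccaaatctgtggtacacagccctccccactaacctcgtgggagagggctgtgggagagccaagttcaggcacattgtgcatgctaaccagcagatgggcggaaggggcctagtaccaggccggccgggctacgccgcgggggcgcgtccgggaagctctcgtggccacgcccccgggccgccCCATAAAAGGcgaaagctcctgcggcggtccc
Ier5: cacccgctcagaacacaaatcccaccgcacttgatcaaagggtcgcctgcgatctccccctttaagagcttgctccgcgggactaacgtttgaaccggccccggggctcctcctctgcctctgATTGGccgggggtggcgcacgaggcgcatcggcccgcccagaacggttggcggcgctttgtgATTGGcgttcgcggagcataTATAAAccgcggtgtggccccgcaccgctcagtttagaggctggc
Ier2: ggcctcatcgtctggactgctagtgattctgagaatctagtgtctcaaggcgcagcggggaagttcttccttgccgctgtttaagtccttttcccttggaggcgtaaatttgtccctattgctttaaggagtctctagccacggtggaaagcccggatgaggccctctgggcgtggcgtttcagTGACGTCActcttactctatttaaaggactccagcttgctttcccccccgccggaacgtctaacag
Nr4a1: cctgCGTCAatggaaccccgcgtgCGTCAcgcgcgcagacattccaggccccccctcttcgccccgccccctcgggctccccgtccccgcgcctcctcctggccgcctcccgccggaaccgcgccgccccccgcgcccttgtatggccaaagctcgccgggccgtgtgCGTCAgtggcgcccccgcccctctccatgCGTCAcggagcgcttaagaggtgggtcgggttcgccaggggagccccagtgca

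The Zfp36 window holds 1 CArG box, at positions -32 to -23 counted from the start. Ier5 has CCAAT on the minus strand at -127 to -123 and -65 to -61 and TATAAA at -45 to -40, and none of the CRE or CArG letters in this window. The Ier2 window holds the full TGACGTCA at -66 to -59. Nr4a1 holds the core CGTCA 4 times, at -246, -226, -82 and -53. Its window lies inside the annotated span of the gene, and other transcript starts were not looked at. Klf6, the other gene with a CArG box here, has it at -201 to -192. Nr4a2, which was negative in all 7 scalings, also holds the CRE core, on the minus strand at -8 to -4. Klf4, which was positive in all 7, has no CRE or CArG letters in its window. The Nr4a2 and Klf4 windows also lie inside the span of their genes.

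The other early genes and the machinery around these 10 were taken from lists, counted by the 2-fold rule. Each list count below stands beside 28.2% higher and 11.2% lower among all measured genes, whose median was 0.27. After the intensity-dependent correction these shares were 15.0% and 15.5%. The first list holds AP-1 and Egr genes, the class most like the one described here, with some other early genes. Of its 10 measured genes 7 passed the rule upwards and 0 downwards, and the median was 1.72 (5 and 0 after the intensity-dependent correction). Arc, which encodes no transcription factor, was among those higher, at 1.84 (0.42 after that correction). Fosl1 stood at 6.36, Egr3 at 3.83, Egr1 at 2.97 and Egr2 at 2.06, and the control signals of the first 3 were low, at 9.99, 9.41 and 13.6. Among the 10 genes described here 2 were lower instead. The gap between the lists was not tested. Of the factors upstream of early gene transcription, which are serum response factor, its partners, CREB, its coactivators and ERK cascade kinases, 6 of 14 passed upwards and 0 downwards, and the median was 0.55. The CREB coactivator gene Crtc1 was at 2.22, the SRF partner gene Elk3 at 1.99, Crtc2 at 1.62 and Crem at 1.49. A second probe of Crem stood at only 0.11. When the probes of a gene were averaged, 4 of the 14 were higher, against 28.1% of measured genes. After the intensity-dependent correction 2 of the list were higher and 1 lower. Crtc1 then stood at 0.82 and Crtc2 at 0.70, within 2-fold, from control signals of 20.1 and 45.3, while Elk3 and Crem stood at 1.37 and 1.46.

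Relatives of the 10 genes differed among themselves as well. Of the other Klf genes 4 of 11 passed upwards and 1 downwards, and the median was 0.46, and after the correction 1 was higher and 1 lower. The counts before the correction were near the shares over all measured genes. Klf1, the erythroid factor gene, was at 2.40 and Klf14 at 2.04 (0.96 after the correction). Klf12 was at 1.08 and Klf15 at -1.08, and Klf12 was at -0.26 after the correction. Of 4 measured close relatives 3 were higher and 0 lower. Rxra, a dimer partner of some Nr4a receptors, was at 2.90 (1.84 after the correction), from a low control signal of 24.0. The Zfp36 paralogue genes Zfp36l1 and Zfp36l2 were at 1.03 and 0.65, both with bright signals. The Ier5 paralogue gene Ier5l was at 1.002 (0.70 after the correction), against -1.54 for Ier5.

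Known targets were counted in the same way. Of AU-rich mRNAs that tristetraprolin is known to destabilise, 5 of 8 measured genes passed upwards and 1 downwards, and the median was 1.52. Another 4 of the 14 matched genes were well above background on the sevoflurane array only, as were 15.4% of 13856 named genes with a usable probe, against 1.44% on the control array only. The cyclooxygenase gene Ptgs2 was at 3.96, the chemokine gene Ccl2 at 2.50, the urokinase receptor gene Plaur at 2.39, and the macrophage chemokine gene Ccl3 at -3.13. Ptgs2 was dim in the control, with a signal of 11.8, and Ccl3 under sevoflurane, with 15.1. After normexp these 2 stood at 1.90 and -1.41. After the intensity-dependent correction 4 of the list were higher and 1 lower. The measured genes of the CCR4-NOT deadenylase and decapping, through which Zfp36 acts, stayed within 2-fold in 14 of 14 cases, with a median of -0.26. Another 6 of the 20 listed genes had no matched probe, most of the decapping genes among them. The deadenylase gene Cnot7 was at -0.88 and Cnot3 at -0.69, and Cnot10 and Cnot4 at -0.61 and -0.60. When arrays were scaled by the median of all probes all 14 passed the 2-fold rule downwards, and the median of all genes was -0.83 on that scale.

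Of known Klf2, Klf4 and Klf6 target genes 3 of 8 passed upwards and 1 downwards, and the median was 0.47. Both counts were near the shares over all measured genes, 28.2% and 11.2%. Cdkn1a, the p21 gene, was at 2.54 with signals of 6079 and 2010. Sp6 was at 3.90, Cdkn1c at 1.24 and S1pr1, a sphingosine phosphate receptor gene known as a Klf2 target, at -1.73. Of known Nr4a target genes 3 of 8 passed upwards and 0 downwards, and the median was 0.66, but 1 was higher and 2 lower after the intensity-dependent correction. Fbp1 was at 1.38 (-0.35 after the correction), Pomc at 1.102, the tyrosine hydroxylase gene Th at 1.03 (0.90 after the correction) and the dopamine transporter gene Slc6a3 at 0.90 (0.24).

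**Figure D4:**
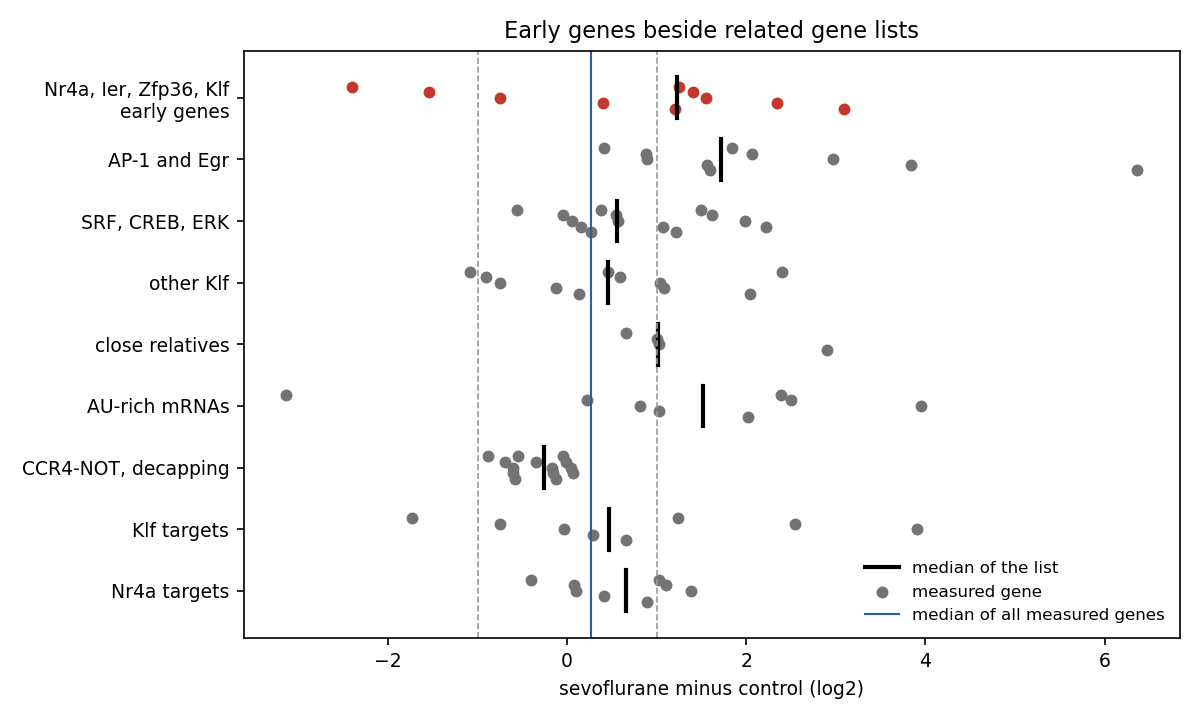
Difference (sevoflurane minus control, log2) of each measured gene in the 10 early genes (red) and in 8 related lists (grey), scaled by the 75th percentile. Black bars are list medians, the blue line is the median of all measured genes at 0.27 and dashed lines mark the 2-fold rule. The 10 early genes spread from -2.40 to 3.09, while the measured CCR4-NOT and decapping genes stay within 2-fold. Most of the decapping genes had no matched probe.

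Markers of the labelled cell type were present: all 12 matched neural stem and progenitor genes were well above background on both arrays, 3 of them higher and 1 lower. Slc1a3, a glutamate transporter gene, was at -1.71, and the median of this list was -0.16. Markers of other cells moved with the comparison, and their part in the early gene values was not tested. Of 10 measured neuronal genes 0 were higher and 6 lower, among them Slc17a6 at -3.10 and Mapt at -3.09. The summed neuronal level, each signal divided by the 75th percentile of its array, was 56.7 under sevoflurane and 135 in the control. For the stem and progenitor list the sums were 104 and 83.0, but 30.7 and 44.2 without the brightest gene, Vim. Of 12 measured microglia and macrophage genes 2 were higher and 7 lower, with Ctss at -3.54 and C1qa at -3.45, and summed levels of 6.58 and 18.6. Cx3cr1 and Itgam were not well above background on either array. Red blood cell genes were higher in 7 of 7 cases, with Ahsp at 4.36 and Epb42 at 4.05 and summed levels of 143 and 25.7. Of 10 measured mesenchymal and pericyte genes 6 were higher and 0 lower, with Rgs5 at 3.39 and Thy1 at 2.60 and summed levels of 119.9 and 74.4. Rgs5 and Thy1 had low control signals of 9.56 and 12.6, and stood at 1.815 and 1.02 after the intensity-dependent correction. Without the brightest gene, Tagln, the sums were 69.4 and 52.2. Of 4 measured endothelial genes 3 were higher and 0 lower, with Cldn5 at 2.65 and Flt1 at 2.61 and summed levels of 0.606 and 0.230. Only 1 of the 4 was higher after the intensity-dependent correction, where Cldn5 stood at 1.47 and Flt1 at 0.90. The count was also 1 with quantiles matched and in the authors' own values. Pecam1 was not well above background on either array. Of 8 astrocyte genes 3 were higher and 2 lower (Gjb6 at 2.80, Apoe at -2.69), with a median of 0.14. That balance turned to 1 higher and 4 lower after the correction (median -0.59), with quantiles matched (-0.81) and in the deposited table (-0.82). The summed astrocyte levels were 11.2 and 14.4, and 1.93 and 5.75 without the brightest gene, Gja1. Of 9 oligodendrocyte lineage genes 4 were higher and 1 lower (Bcas1 at 3.41, Gpr17 at 2.41). After the correction 2 were higher and 1 lower, with Gpr17 at 0.82. Their summed levels of 15.6 and 4.79 came close to each other without Bcas1, at 4.42 and 3.73. The neuronal list had 0 higher and 8 lower after the correction, the microglial list 1 and 7, the red blood cell list 7 and 0, the mesenchymal and pericyte list 5 and 0, and the stem and progenitor list 2 and 1. In such bulk samples, fewer cells of a type and less RNA per cell cannot be told apart.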

How the data were processed

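One-colour (Cy3) arrays of total RNA were read from the authors' deposited scanner files, whose spot intensity was written by Agilent Feature Extraction 11.0.1.1 with background already subtracted, per the file headers. Control spots and spots flagged as outliers (521 and 580 of 42136) were left out. No spot was saturated. Processed intensities were log2-transformed and averaged over the spots of a probe (the 10 genes have 1 spot each). Each array was then centred on its 75th percentile over probes. A probe was measured when most usable spots were well above background on both arrays. RefSeq accessions without versions were named through the GRCr8 gene table, which matched 14266 of 15323 mRNA probes; the array design refers to rn4. The measured probe of highest mean level stood for its gene.

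With 1 array per group there was no test, and the number of arrays limits the precision. The 2 scans were made on separate days, and the effect of that and of the group cannot be told apart. Probes with at least 3 spots had a median SD of 0.088 (sevoflurane) and 0.068 (control) log2 units. In 236 genes with several measured probes, the gap between the differences of the probes had a median of 0.17 and was at least 1 in 15.7%. Differences varied with level: ranked by level into 10 groups, the dimmest probes had a median of 1.75 and the brightest 0.18.

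The 7 scalings were the 75th percentile, the median of all probes, the median of measured probes (chosen after seeing the data), quantile normalization, an intensity-dependent lowess correction (span 0.3, statsmodels 0.14.6), normexp background (limma 3.58.1, offset 50) and the authors' deposited value table, read as log2 intensity. Normexp was run on the median spot signal, since the files used here hold no mean signal. The deposited table has medians of 5.61 and 5.60 and correlated with the log2 scanner signals at 0.991 and 0.993 over 24431 probes. Its program and centring are not stated. Its differences were nearly those after quantile normalization (Ier3 3.050 and 3.053, Nr4a3 -2.876 and -2.873), with a correlation of 0.968 between the 2 sets of differences. Scripts were tested on simulated data.

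The 10 genes, the gene lists and the rules were chosen with earlier results of these data known. Named genes are all 10 genes, up to 4 measured genes of each pathway list with the highest absolute difference, and up to 2 of each marker list; 1 gene that this rule takes is not reported here. Promoter sequences are from RefSeq.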

Additional observations from a re-analysis of the deposited data

How the results depend on the processing

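No paired analysis was possible because the groups share only 1 replicate number. With 1 array per group, no array could be left out. Keeping all spots could move the 10 genes only through the percentile of the array, and left them nearly as they were. Not filtering dim probes could not change them, since all 10 were measured. Taking the mean over probes changed none of the 10, since each of them has 1 probe. In the lists it left 4 upstream factors higher where 6 were as used, and 4 AU-rich mRNAs where 5 were. Scaling by the median of all probes gave 2 of the 10 genes at least 2-fold higher; a 4-fold rule gave 2 higher and 1 lower. The median of all measured genes lay at 0.27 as used, -0.83 with the median of all probes, 0.07 with the median of measured probes, -0.10 once quantiles were matched, 0.00 with the intensity-dependent correction, 0.32 after normexp and -0.10 in the deposited table. Of all genes, 2822 were higher and 1123 lower as used. Higher were 1050 with the median of all probes, 1367 once quantiles were matched, 1499 with the intensity-dependent correction, 1358 in the deposited table and 6386 with no filter; lower were 4362, 1967, 1558, 1916 and 1203. The causes were not tested, but with no filter more genes were counted (13856).

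The list counts are given in the order median of all probes, quantile normalization, intensity-dependent correction and deposited table. In that order 10.5%, 13.6%, 15.0% and 13.6% of all genes were higher, and 43.5%, 19.6%, 15.5% and 19.2% lower. With the median of measured probes these shares were 24.3% and 14.7%, and after normexp 23.1% and 8.44%. With no filter they were 46.1% and 8.68%. Except with no filter, the number of measured genes in a list is that given above. Genes of the AP-1 and Egr list, which also holds Arc, were higher in 3, 4, 5 and 4 cases and lower in 0, 1, 0 and 0. Upstream factors were higher in 1, 2, 2 and 2 and lower in 3, 1, 1 and 1. Other Klf genes were higher in 1, 1, 1 and 1 and lower in 4, 1, 1 and 1; they were 2 and 2 with the median of measured probes, and 2 and 0 after normexp. Close relatives were higher in 1 case with the median of all probes and 1 with that of measured probes. AU-rich mRNAs were higher in 3 of 8 cases with the median of all probes and in 11 of 14 with no filter. CCR4-NOT and decapping genes were lower in 14, 1, 1 and 1 cases, and in 1 with the median of measured probes and 1 after normexp. Klf targets were lower in 3, 2, 2 and 2 cases, and higher in 5 of 11 with no filter. Nr4a targets were higher in 0, 1, 1 and 1 and lower in 3, 3, 2 and 2. With the median of measured probes 1 was higher, and with no filter 7 of 12 were.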
